A study of Homo sapiens with 4 samples.

Results

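TXNIP, its relatives among the alpha-arrestins (ARRDC1, ARRDC2, ARRDC3 and ARRDC4), its binding partner thioredoxin (TXN) and the glucose-responsive transcription factors MLXIP (MondoA) and MLX are described here in QK-knockdown U87 cells given miR-20a. They are 8 of the 18304 genes that a probe set of the array names alone, and they were read by 20 of 41920 probe sets. The genes were chosen by name as a family and pathway, and TXNIP was chosen from an earlier result of this same comparison, in which it was among the larger decreases. All values of the 8 genes below are therefore a description, and the p-values beside them place a value among all probe sets and are no independent support.

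U87 is an established human glioma cell line. The study measured 2 arrays of U87 cells transduced with miR-20a and 2 arrays of U87 cells transduced with miR-NT, a scrambled microRNA without a target. QK (QKI), which codes for an RNA-binding protein, was knocked down in all 4 samples, so the miR-NT cells carry the knockdown too, and no array of cells without it was analysed here. The labels do not tell whether replicates were separate cultures, and the p-values then reflect just the scatter of these samples, which can be technical. Every level below is a log2 probe-set level as deposited, and every change is the mean of the miR-20a arrays minus that of the miR-NT arrays, with the standard error (SE) of a limma fit over all probe sets. In such bulk samples a smaller share of cells that express a gene and less RNA per cell cannot be told apart.

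Alpha-arrestins are adaptor proteins that bring ubiquitin ligases of the NEDD4 family to membrane proteins and so mark them for endocytosis. TXNIP is the best known of them: it binds thioredoxin and lowers its reducing activity, and it takes glucose transporters off the cell surface. Its transcription follows the glucose supply, because the heterodimer of MondoA and MLX, which senses glucose phosphates, binds a carbohydrate response element in the TXNIP promoter, and ARRDC4 is a further known target of that heterodimer. TXNIP messenger RNA has also been described as a target of miR-17, which shares its seed with miR-20a.

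The microRNA that defines the treated group is shown with 5 relatives of the same seed from human RefSeq (GRCh38.p14), because a microRNA selects its targets mainly through the seed, bases 2 to 8, written in capitals. The 5p strand of miR-20a lies at chr13:91351072-91351094 on the plus strand, and 8 mature microRNAs in the table, miR-20a-5p included, have the seed AAAGUGC.
hsa-miR-20a-5p: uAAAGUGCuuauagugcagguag
hsa-miR-17-5p: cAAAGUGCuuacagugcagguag
hsa-miR-106a-5p: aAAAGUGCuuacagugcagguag
hsa-miR-20b-5p: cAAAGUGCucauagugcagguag
hsa-miR-93-5p: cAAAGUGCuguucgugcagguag
hsa-miR-106b-5p: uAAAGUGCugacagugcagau

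The TXNIP and ARRDC4 promoters are shown because both genes are known targets of the MondoA and MLX heterodimer and TXNIP was lower in miR-20a cells while ARRDC4 overlapped between the groups. Each sequence is a RefSeq window (GRCh38.p14) from 250 bases before to 50 bases after a gene start, given in the direction of transcription. A single form of the carbohydrate response element was searched on both strands, the letters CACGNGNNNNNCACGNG, a pair of E-box-like elements 5 bases apart. The letters fit the element of TXNIP itself, so the match in TXNIP is no result, and other forms of the element were not searched. The E-box was searched as CACGTG. The matches are in capitals. The tandem element was found in 20 of 35116 promoters (0.057%) and, of 11 promoter windows of the 8 genes, in 1, the upstream start of TXNIP, where it began 88 bases before the gene start. The plain E-box was found in 7.26% of promoters and in 2 of the 11 windows, those of ARRDC4 and MLX, and the window of ARRDC4 held no tandem element in these letters. A match is a description of the letters only.
TXNIP, chr1:145996530-145996829, minus strand: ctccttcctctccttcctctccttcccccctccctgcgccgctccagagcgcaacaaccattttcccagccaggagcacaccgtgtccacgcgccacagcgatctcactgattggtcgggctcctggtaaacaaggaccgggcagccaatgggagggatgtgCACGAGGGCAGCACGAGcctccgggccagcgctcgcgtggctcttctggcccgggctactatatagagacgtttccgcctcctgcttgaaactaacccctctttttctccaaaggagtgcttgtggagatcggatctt
ARRDC4, chr15:97960453-97960752, plus strand: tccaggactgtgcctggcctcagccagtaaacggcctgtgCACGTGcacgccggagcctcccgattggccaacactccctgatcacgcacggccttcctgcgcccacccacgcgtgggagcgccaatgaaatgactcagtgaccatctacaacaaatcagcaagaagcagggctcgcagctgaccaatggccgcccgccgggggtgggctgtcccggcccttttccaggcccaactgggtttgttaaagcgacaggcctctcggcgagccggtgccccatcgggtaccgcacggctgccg

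Over all probe sets the arrays correlated at r = 0.9946 within miR-20a, 0.9961 within miR-NT and between 0.9907 and 0.9935 across the groups. RNA quality was read from ACTB controls, whose 3′ signal exceeded the 5′ signal by 0.49 ± 0.04 log2 units on the miR-20a arrays and by 0.27 ± 0.11 on the miR-NT arrays (SD, n = 2 each). The change also moved with the level: probe sets at high levels tended to be higher in miR-20a cells (Spearman rho = 0.22 across 41920 probe sets, which share the same 4 arrays). The part of either in the values below was not tested. Of the glial markers, vimentin (VIM) was at 14.68 and 14.63 in miR-20a cells and 14.70 and 14.66 in miR-NT cells, while S100B lay between 4.79 and 5.05 on the 4 arrays. Of 8 glial markers 5 had a lower mean in miR-20a cells, 2 of them at an unadjusted p under 0.05 (limma). Over all genes 8.33% were lower at that threshold and 47% had a higher mean. The summed log2 levels of the glial markers were 67.13 to 67.71 on the miR-20a arrays and 68.32 to 68.45 on the miR-NT arrays. The lowest change of a glial marker was that of SOX9, a glial transcription factor, at -0.44 ± 0.12 (SE), with -0.66 by its other probe set. SOX9 was at 6.996 and 6.75 in miR-20a cells and at 7.39 and 7.23 in miR-NT cells. The values carry no detection calls, so the absence of a transcript cannot be read from a low level. The endothelial markers had a lower mean in miR-20a cells for 5 of 6 genes. Their summed log2 levels were 37.29 to 37.40 on the miR-20a arrays and 37.81 to 38.05 on the miR-NT arrays. Only ERG among them had an unadjusted p under 0.05 (limma), and its probe sets ran from -0.34 to 0.31. A lower mean was also found for 4 of 6 epithelial and 2 of 4 measured blood markers, and no marker of these lists passed the adjusted test. The part of these marker levels in the values below was not tested.

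TXNIP was lower in both miR-20a samples by each of its 3 probe sets. By the brightest probe set it was at 10.47 and 10.39 log2 units in miR-20a cells and at 11.07 and 11.06 in miR-NT cells. The groups did not overlap, and the distance between them was larger than the distance between the replicates of either group. The means were 10.43 ± 0.06 in miR-20a cells and 11.07 ± 0.01 in miR-NT cells (SD, n = 2 each), a change of -0.64 ± 0.09 (SE), or 1.55-fold lower. Among 18304 genes, each taken at its brightest probe set, TXNIP had rank 20 from the lowest change.

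The other probe sets of TXNIP gave smaller changes of the same sign. The second brightest read 9.75 and 9.68 in miR-20a cells against 10.28 and 10.26 in miR-NT cells, a change of -0.55 ± 0.09 (SE). The dimmest read 9.59 and 9.77 in miR-20a cells against 10.07 and 10.17 in miR-NT cells, a change of -0.44 ± 0.10 (SE). The least separated of the 3 was thus the one in which the miR-20a arrays differed most from each other. Over all probe sets the limma adjusted p of TXNIP was 0.086, 0.11 and 0.15 for the 3 probe sets, so none passed the threshold of 0.05, which 0.136% of all probe sets passed. When each gene was entered with 1 probe set, the adjusted p of TXNIP was 0.045 (limma), and 0.426% of 18304 genes passed in that fit, 0.0601% on the lower side. The call therefore differed between these fits over probe sets and over genes, while the change of the brightest probe set was the same value. The call over probe sets also moved with other settings, such as quantile normalization (limma adjusted p = 0.044).

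**Figure D1:**
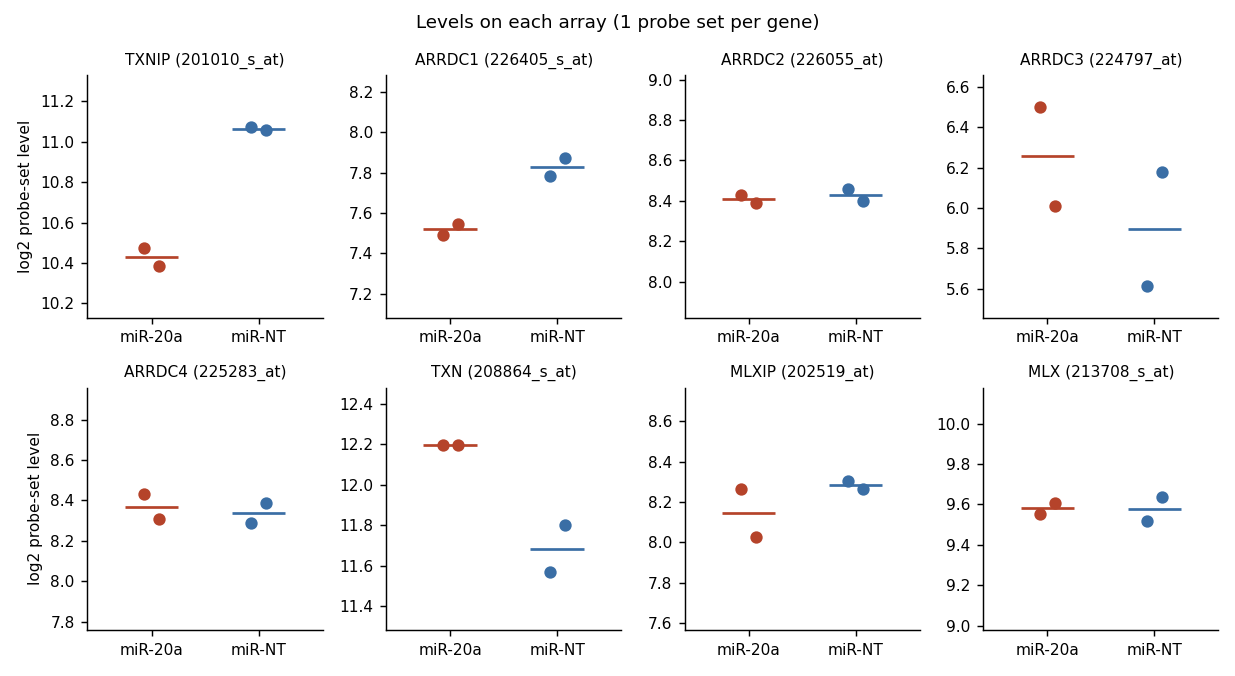
Log2 probe-set level on each array for the brightest probe set of each gene, miR-20a arrays left and miR-NT arrays right, with a line at the group mean (n = 2 each). All panels span the same number of log2 units. TXNIP at 10.47 and 10.39 lies clear of 11.07 and 11.06, TXN lies higher on both miR-20a arrays, and the arrays of ARRDC2, ARRDC3, ARRDC4, MLXIP and MLX overlap or touch between the groups.

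The other alpha-arrestins did not share the TXNIP pattern as a family. ARRDC4, the arrestin that is closest to TXNIP in its known control by glucose, was at 8.43 and 8.31 log2 units in miR-20a cells and at 8.29 and 8.39 in miR-NT cells. The groups overlapped, and the change was 0.03 ± 0.10 (SE). Its change was 0.67 log2 units above that of TXNIP on the same arrays. Only 1 probe set represented ARRDC4, so no second reading was available for it.

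ARRDC1, which binds TSG101 and recruits NEDD4-family ligases during the budding of vesicles from the plasma membrane, had the lowest change among the ARRDC genes. It was at 7.49 and 7.54 in miR-20a cells and at 7.78 and 7.87 in miR-NT cells, a change of -0.31 ± 0.09 (SE, limma adjusted p = 0.18). Its weaker probe set read 6.15 and 5.98 in miR-20a cells against 6.29 and 6.24 in miR-NT cells, a change of -0.20 ± 0.10 (SE) that was -0.11 without miR-20a replicate 2. Both probe sets of ARRDC1 had groups that did not overlap, and neither passed the threshold. ARRDC1-AS1, an antisense transcript with a probe set of its own, had a change of -0.11 ± 0.09 (SE).

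ARRDC2 was at 8.43 and 8.39 in miR-20a cells and at 8.46 and 8.40 in miR-NT cells, a change of -0.02 ± 0.09 (SE) with groups that overlapped. ARRDC3, an adaptor in the endocytosis of the beta-2 adrenergic receptor and of integrin beta-4, was at 6.502 and 6.01 in miR-20a cells and at 5.61 and 6.18 in miR-NT cells. The change of ARRDC3 was 0.36 ± 0.22 (SE), with the widest spread of the 8 genes, and it was not larger than the difference between the replicates. Without miR-NT replicate 1 it was 0.08 and without miR-20a replicate 1 it was 0.11, while it was 0.60 without miR-20a replicate 2 and 0.64 without miR-NT replicate 2. Both extremes came from leaving out a miR-NT array.

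**Figure D2:**
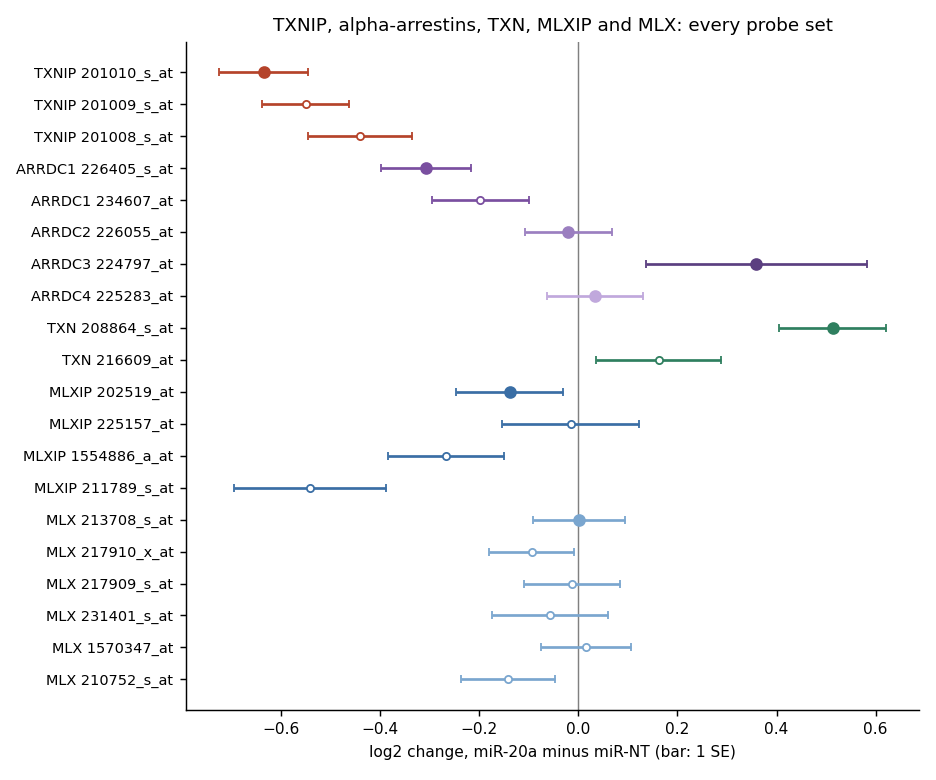
Log2 change (miR-20a minus miR-NT) of all 20 probe sets, with bars of 1 SE from the limma fit. Filled points mark the brightest probe set of a gene and open points the others. The 3 probe sets of TXNIP lie at -0.64, -0.55 and -0.44, those of MLXIP spread from -0.54 to -0.02, and those of MLX lie between -0.14 and 0.02.

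TXN, the small redox protein that TXNIP binds and inhibits, had the opposite sign. It was at 12.20 on both miR-20a arrays and at 11.57 and 11.80 on the miR-NT arrays, a change of 0.51 ± 0.11 (SE, limma adjusted p = 0.14), or 1.43-fold higher. The groups did not overlap, the miR-20a arrays lay close together and the miR-NT arrays further apart. Without miR-NT replicate 1 the change was 0.40. The second probe set of TXN read 9.31 and 9.26 in miR-20a cells and 8.96 and 9.29 in miR-NT cells, a change of 0.16 ± 0.13 (SE) with overlapping groups. The change of TXN was 1.15 log2 units above that of TXNIP by the brightest probe sets.

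Quantile normalization and cyclic loess lowered the changes of both genes by a like amount, and median centring gave -0.60 for TXNIP and 0.55 for TXN. After quantile normalization the change of TXNIP was -0.78 (limma adjusted p = 0.044) and that of TXN 0.37 (limma adjusted p = 0.20). After cyclic loess the values were -0.77 (limma adjusted p = 0.048) and 0.37 (adjusted p = 0.19, limma). In both rescaled tables TXNIP lay further below its miR-NT level and TXN less far above it.

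**Figure D3:**
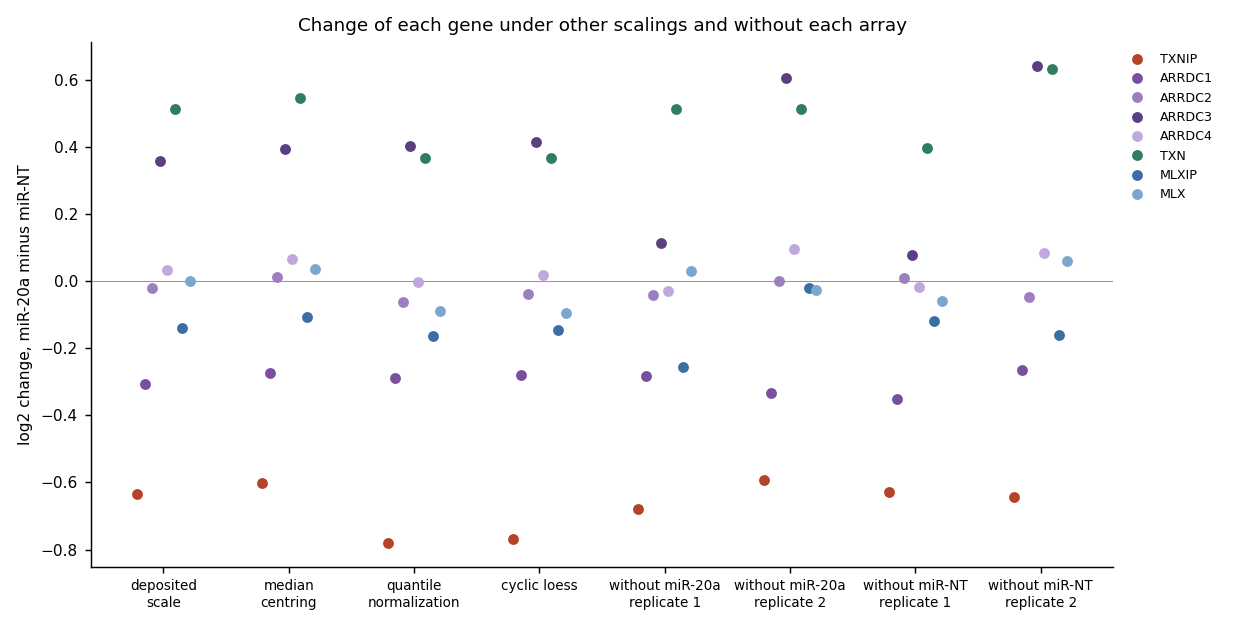
Log2 change (miR-20a minus miR-NT) of the brightest probe set of each gene on the deposited scale, under 3 other scalings and without each array in turn. TXNIP stays between -0.78 and -0.59 and TXN between 0.37 and 0.63, while the points of ARRDC2, ARRDC4 and MLX cross 0 and ARRDC3 runs from 0.08 to 0.64.

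MLXIP, the glucose-sensing subunit MondoA, was read by 4 probe sets that all had a lower mean in miR-20a cells but differed in size. By the brightest, MLXIP was at 8.26 and 8.03 in miR-20a cells and at 8.31 and 8.26 in miR-NT cells, a change of -0.14 ± 0.11 (SE) that rested on miR-20a replicate 2 and was -0.02 without it. The second brightest had a change of -0.02 ± 0.14 (SE), with miR-20a arrays at 8.03 and 7.64 on either side of the miR-NT arrays at 7.89 and 7.81. The dimmer probe sets of MLXIP gave -0.27 ± 0.12 and -0.54 ± 0.15 (SE). The first of these was -0.13 without miR-NT replicate 1 and -0.40 without miR-NT replicate 2. The dimmest read 4.56 and 4.68 in miR-20a cells against 5.38 and 4.94 in miR-NT cells. That last reading lies near the bottom of the scale, and without miR-NT replicate 1 it was -0.32. The size of a difference in MLXIP therefore depended on the probe set.

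MLX, the partner with which MondoA binds DNA, was read by 6 probe sets. Its brightest was at 9.55 and 9.61 in miR-20a cells and at 9.52 and 9.64 in miR-NT cells, a change of 0.0014 ± 0.09 (SE), and the miR-20a arrays lay between the miR-NT arrays. Over the 6 probe sets of MLX the changes ran from -0.14 to 0.02, with 4 lower and 2 higher means. In 2 of the 6 the groups did not overlap, and none passed the threshold or an unadjusted p of 0.05.

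Over the 8 genes, 14 of 20 probe sets had a lower and 6 a higher mean in miR-20a cells, where 55.3% of all probe sets had a lower and 44.7% a higher mean. The groups did not overlap in 9 probe sets on the lower side and in 1 on the higher side, where 27.2% and 21.7% of all probe sets did the same. At an unadjusted p under 0.05 (limma) 5 were lower and 1 higher, where 8.4% and 9.46% of all probe sets were. The 5 were the 3 of TXNIP, 1 of ARRDC1 and 1 of MLXIP, and the 1 was of TXN. The median change of the 20 was -0.08, and that of all probe sets -0.02. The probe sets of a gene share its transcript and are not independent, and the members were picked with this contrast known.

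Set beside probe sets of like level, TXNIP lay outside the range of most of them. Between 10.5 and 11.0 log2 units, where its brightest probe set falls, 649 probe sets had a median change of 0.16, with a 5th percentile of -0.19 and a 95th of 0.53. The other 2 probe sets of TXNIP were likewise below the 5th percentile of their level, -0.28. TXN, at 0.51, was just inside the 95th percentile of its level, 0.52 over 242 probe sets between 11.5 and 12.0. Of the 20 probe sets, 5 lay below the middle 90 percent of their level, 1 above it and 14 inside it. The 5 were the 3 of TXNIP, the dimmest of MLXIP and the brighter of ARRDC1. That of ARRDC1 was just outside, at -0.3080 against a 5th percentile of -0.3076. The 1 above was ARRDC3, whose groups overlapped.

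**Figure D4:**
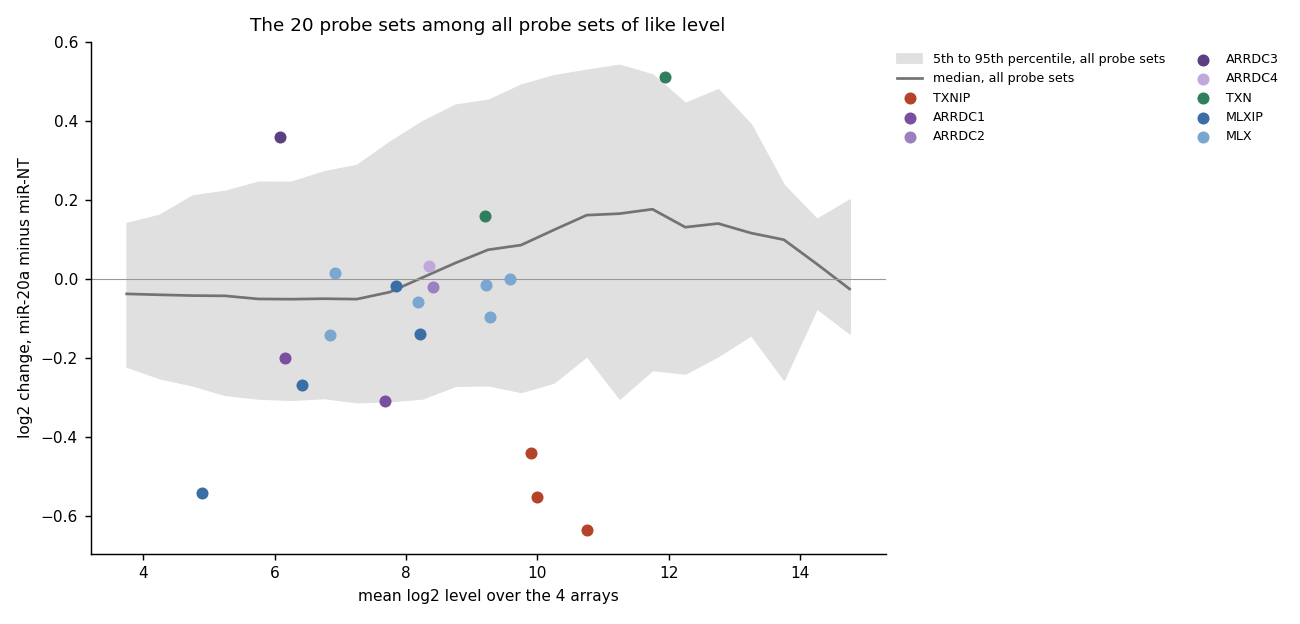
Log2 change (miR-20a minus miR-NT) against the mean log2 level over the 4 arrays for the 20 probe sets, with the 5th to 95th percentile (band) and the median (line) of all probe sets in steps of 0.5 log2 units that hold at least 20 probe sets. The 3 TXNIP points lie below the band, TXN at 0.51 lies at its upper edge, and the line is nearly flat at low levels and rises between 7.5 and 12.0 log2 units.

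The genes around TXNIP were described by lists compiled from general knowledge, each gene taken at its brightest probe set. None of the 87 measured genes of these 8 lists passed the adjusted threshold of the fit over all probe sets (limma), where 0.164% of 18304 genes passed. An unadjusted p under 0.05 was found for 25 of the 87. At that threshold 11.8% of all genes were higher and 8.33% lower, while 47% of all genes had a higher mean, and the median change of all genes was -0.01.

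Thioredoxin reductases, peroxiredoxins and their relatives mostly had higher means in miR-20a cells, as TXN did. Of 15 measured genes 13 were higher, 7 of them at an unadjusted p under 0.05, and 0 were lower at that threshold (limma). Among the higher genes, TXNL1, PRDX3, MSRB2 and GLRX each had a probe set with a lower mean, down to -0.33 for MSRB2. The lower genes, MSRA and TXN2, each had a probe set with a higher mean. The median change of the list was 0.18 on the deposited scale and 0.16 after quantile normalization. Most of these genes lie at levels where probe sets in general were higher in miR-20a cells. The median change of all probe sets was 0.08 between 9.0 and 9.5 log2 units and 0.17 between 11.0 and 11.5. The part of the level in the values of this list was not tested. TXNRD1, the cytosolic reductase that recycles thioredoxin, was at 11.27 and 11.18 in miR-20a cells and at 10.60 and 10.56 in miR-NT cells, a change of 0.65 ± 0.09 (SE, limma adjusted p = 0.086). The other probe set of TXNRD1 gave 0.02. PRDX2, a peroxiredoxin that is reduced by thioredoxin, was at 10.42 and 10.51 in miR-20a cells and at 9.95 and 10.07 in miR-NT cells, a change of 0.46 ± 0.09 (SE), and its 4 probe sets ranged from 0.01 to 0.46.

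The MYC, MAX and MLX network went both ways. At an unadjusted p under 0.05 (limma), 1 of 9 measured genes was higher and 2 were lower, and the median was 0.0051. MAX, the common partner of MYC and MXD proteins, was at 10.29 and 10.19 in miR-20a cells and at 9.83 and 9.86 in miR-NT cells, a change of 0.39 ± 0.09 (SE), but 3 of its 5 probe sets had a lower mean. MYC was at 9.013 and 8.996 in miR-20a cells and at 9.31 and 9.38 in miR-NT cells, a change of -0.34 ± 0.09 (SE).

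Genes known as MondoA or ChREBP targets, beyond TXNIP and ARRDC4, had no common direction. At an unadjusted p under 0.05 (limma), 2 of 12 measured genes were higher and 2 lower, around a median of 0.03. HK2, the hexokinase that makes glucose-6-phosphate, was at 10.41 and 10.40 in miR-20a cells and at 9.68 and 9.67 in miR-NT cells, a change of 0.73 ± 0.09 (SE), with 0.09 by its other probe set and a limma adjusted p of 0.057 for the brighter. FASN, the fatty acid synthase, was at 10.26 and 10.20 in miR-20a cells and at 11.07 and 10.81 in miR-NT cells, a change of -0.71 ± 0.11 (SE), with -0.29 by its other probe set and a limma adjusted p of 0.11 for the brighter. HK2 and TXNIP, both MondoA targets by textbook account, thus had changes of opposite sign and similar size.

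Ubiquitin ligases of the NEDD4 family, which alpha-arrestins recruit through their PPxY motifs, had higher means in 8 of 9 genes by the brightest probe set. At an unadjusted p under 0.05, 4 were higher and 0 lower (limma), and the median was 0.19, or 0.11 after quantile normalization. HECW2 was at 7.75 and 7.37 in miR-20a cells and at 6.87 and 6.77 in miR-NT cells, a change of 0.74 ± 0.14 (SE), with 0.12 by its other probe set. WWP2 was at 8.82 and 8.85 in miR-20a cells and at 8.49 and 8.48 in miR-NT cells, a change of 0.35 ± 0.09 (SE), but its other probe sets had lower means, down to -0.34. Probe sets also disagreed for NEDD4L, with 1 of 4 higher, and for SMURF1, with 2 of 5 higher. SMURF2 had 2 of 3 higher and a lowest change of -0.36. Every probe set of HECW2, NEDD4 and WWP1 had a higher mean. ITCH, the ligase that ubiquitinates TXNIP, had a change of 0.12 ± 0.11 (SE), and its arrays overlapped between the groups. Of its 6 probe sets 4 were higher, and the 6 ran from -0.22 to 0.12. ITCH is named for its role, outside the rule for named genes.

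Among 7 other genes with the arrestin fold, which include ARRB1, a beta-arrestin, and the retromer subunits VPS26A and VPS26B, an unadjusted p under 0.05 (limma) was reached by 1 with a higher mean and 0 with a lower one, and the median was 0.02. VPS26A was at 10.48 and 10.33 in miR-20a cells and at 10.14 and 10.15 in miR-NT cells, a change of 0.26 ± 0.10 (SE) that was 0.13 after quantile normalization and 0.14 after cyclic loess. RGP1 had a change of 0.22 ± 0.09 (SE), with groups that did not overlap.

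Glucose transporters, the first enzymes of glucose use and AMPK, the energy-sensing kinase that phosphorylates TXNIP, held 16 measured genes, of which an unadjusted p under 0.05 (limma) was reached by 1 on the higher and 1 on the lower side. The median of this list was 0.02 on the deposited scale and -0.05 after quantile normalization. PRKAG2, a regulatory subunit of AMPK, was at 9.57 and 9.53 in miR-20a cells and at 9.19 and 9.13 in miR-NT cells, a change of 0.39 ± 0.09 (SE), with probe sets from -0.37 to 0.64. SLC2A4, the insulin-responsive transporter GLUT4, was at 6.27 and 6.17 in miR-20a cells and at 6.55 and 6.55 in miR-NT cells, a change of -0.33 ± 0.09 (SE). SLC2A1, the transporter GLUT1 whose endocytosis TXNIP promotes, had a change of 0.01 ± 0.09 (SE) with overlapping groups, and -0.19 by its other probe set. SLC2A1 is likewise named outside the rule.

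Partners and downstream genes of TXNIP, the NLRP3 inflammasome among them, held 11 measured genes, and 2 with a higher mean and 0 with a lower one had an unadjusted p under 0.05 (limma). The median was 0.04, and -0.01 after quantile normalization. COPS5, the COP9 subunit JAB1 that TXNIP binds, was at 10.05 and 10.03 in miR-20a cells and at 9.40 and 9.63 in miR-NT cells, a change of 0.53 ± 0.11 (SE). CDKN1B, the cell cycle inhibitor p27, was at 8.46 and 8.26 in miR-20a cells and at 7.77 and 8.09 in miR-NT cells, a change of 0.43 ± 0.13 (SE), and was 0.27 without miR-NT replicate 1. No gene of the inflammasome itself (NLRP3, PYCARD, CASP1 and IL1B) had groups that stood apart.

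Of 8 measured cargo and budding partners of the alpha-arrestins, an unadjusted p under 0.05 (limma) was reached by 1 on either side, with a median of 0.09. TSG101, the ESCRT subunit that ARRDC1 binds, was at 10.03 and 10.02 in miR-20a cells and at 9.79 and 9.80 in miR-NT cells, a change of 0.23 ± 0.09 (SE) that was 0.11 after either quantile normalization or cyclic loess. ITGB4, integrin beta-4, whose removal from the surface ARRDC3 assists, was at 7.63 and 7.60 in miR-20a cells and at 7.92 and 7.84 in miR-NT cells, a change of -0.27 ± 0.09 (SE), with 3 of 5 probe sets of that sign.

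**Figure D5:**
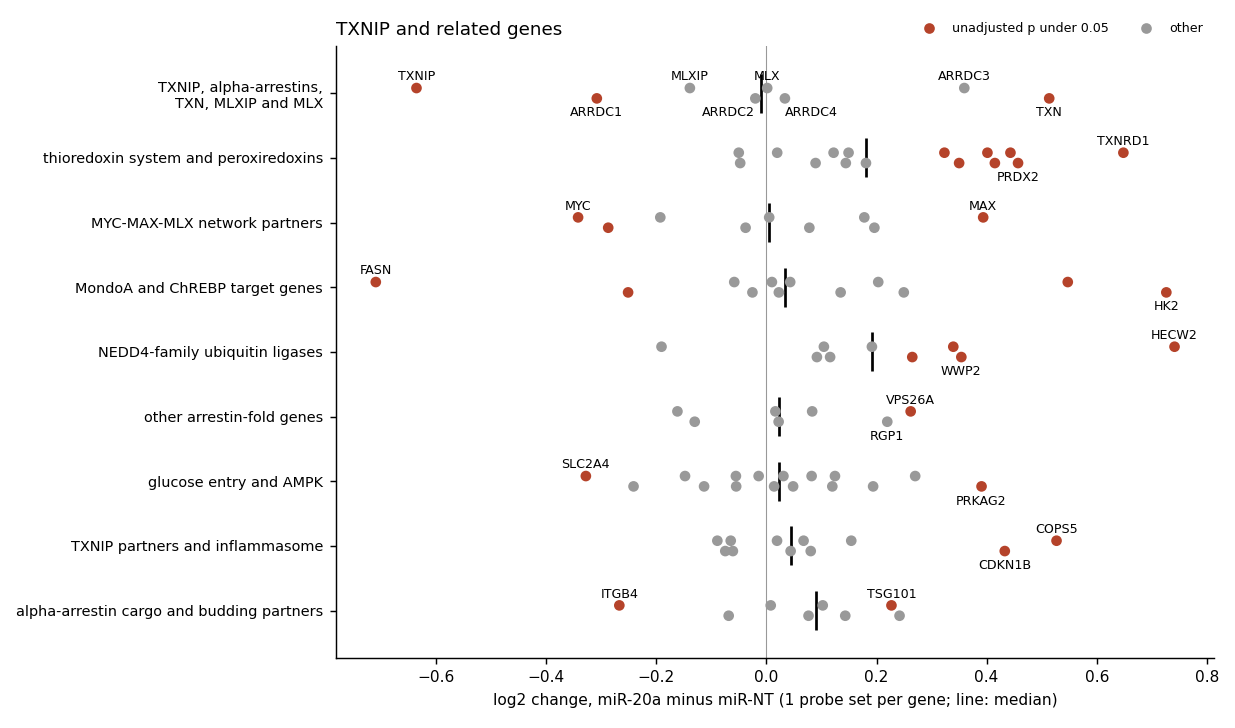
Log2 change (miR-20a minus miR-NT) of the 8 genes (top row) and of the genes of 8 related lists, each by its brightest probe set; a black line marks the median of a row and red points an unadjusted p under 0.05. TXNIP at -0.64 and FASN at -0.71 lie farthest left, HECW2 at 0.74 and HK2 at 0.73 farthest right, and most points of the thioredoxin and NEDD4-family rows lie above 0.

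The genes whose levels over the 4 arrays were most like those of TXNIP were sought among 18296 other genes, by the root-mean-square difference of the 4 deviations from each gene's own mean. NT5DC2 came first, with a difference of 0.014 log2 units, followed by SIGLEC15 at 0.023, RSPO1 at 0.030, HMGA1 at 0.042 and TTYH3 at 0.042. NT5DC2, a gene of the 5'-nucleotidase domain family, was at 10.61 and 10.51 in miR-20a cells and at 11.20 and 11.16 in miR-NT cells, and HMGA1, a chromatin architectural protein, was at 9.82 and 9.63 in miR-20a cells and at 10.34 and 10.38 in miR-NT cells. With 4 arrays in 2 groups this likeness is mostly a like change between the groups. Of the other 7 genes described here, ARRDC1 was the most like TXNIP, at 0.17, and TXN the least, at 0.58.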

How the data were processed

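Each of the 4 samples was read on 1 single-colour Affymetrix array from biotin-labelled cRNA, per the labels' protocols. The authors deposited 1 log2 level per probe set and array, and the log base was taken from the range of the values. R's affy package is named in the submitters' processing notes, with no version. How the background was corrected and the arrays were scaled is not stated in the labels or headers, and the deposited scale was kept. The file held 41930 probe sets, of which 10 array controls were left out of the fit. Of the rest, 37465 named a single gene, 1727 several and 2728 none by GEO's platform annotation, and no symbol needed updating to RefSeq. A gene is represented by its probe set with the highest mean over the 4 arrays. No filter on low values was used, so 4 arrays set the precision. No columns were copies (at most 128 equal values between arrays).

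For the comparison, lmFit and eBayes of limma 3.58.1 (R 4.3.3) were run with the group as the single term over 41920 probe sets, with two-sided p-values adjusted by Benjamini-Hochberg over all of them and a threshold of 0.05. The fit was tested on simulated data with known changes. It called 81.6% of true changes of 1 log2 unit, 9.1% of those of 0.64 and 1.1% of those of 0.5. A change of the size of that of TXNIP was thus seldom called in simulations with 200 changed probe sets. The number of changed probe sets in these data is not known, and a value that did not pass cannot be read as unchanged. With 2 arrays against 2 the smallest p of an exact permutation test is 0.333. The genes and lists were chosen with earlier results of these data known. The rule for named genes took all 8 genes, each list gene past the threshold, the 2 with the smallest p of each list, and the 5 genes most like TXNIP. Of the listed pathway genes, 8 had no probe set of their own in the table and were not analysed here. Other settings tried were quantile normalization, median centring, cyclic loess, removal of the lowest 40 percent of probe sets, a trend and robust fit, a replicate block, 1 probe set or the mean of all per gene, adjusted p thresholds of 0.1 and 0.01, and leaving out each array. A crossed block was added after seeing the data.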

Additional observations from a re-analysis of the deposited data

Results flagged for a closer look

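Control probe sets outside the comparison differed between the groups. For ACTB the 3′ signal exceeded the 5′ signal by 0.486 log2 units on the miR-20a arrays and by 0.272 on the miR-NT arrays, and for GAPDH by 0.275 on the miR-20a arrays and by 0.222 on the miR-NT arrays (means, n = 2 each). Both miR-20a arrays were above both miR-NT arrays for each control.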

How the results depend on the processing

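For means per gene, 153 of 18304 genes passed the threshold. The number of probe sets past the threshold was 57 of 41920, and it was 334 of 25152 without the lowest 40 percent of probe sets and 957 with a trend and robust fit. It was 159 at an adjusted p of 0.1, 0 at 0.01 and 0 with the replicate block (limma, 5754 at an unadjusted p under 0.05). It was between 0 and 66 without single arrays, with 0 (limma, 3231 or 5097 at an unadjusted p under 0.05) when either miR-NT array was left out, 16 when the first miR-20a array was, and 66 when the other was. Same-numbered arrays had deviations that correlated at -0.12, so the numbers are not known to pair the samples, and a crossed pairing, added after seeing the data, gave 0 calls as well (limma, with 7343 below 0.05 before adjustment). Of the 20 probe sets described, 0 passed, against 1 after quantile normalization, 1 after cyclic loess and 1 at an adjusted p of 0.1. With a trend and robust fit 4 passed (TXNIP by 3 and TXN by 1), and without the lowest 40 percent 2 of the 16 left. Of the 8 genes, 1 passed with 1 probe set per gene and 1 for means per gene. Of 87 list genes, 0 passed, against 1 after median centring, 2 with 1 probe set per gene and 2 at an adjusted p of 0.1. With a trend and robust fit 10 passed, and without the lowest 40 percent 3 of the 78 left.

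TXNIP kept its sign under all 15 alternatives, at -0.78 to -0.59 by its brightest probe set and -0.54 as a mean over its probe sets, with limma adjusted p-values from 0.0096 to 0.64. In all, 12 of the 20 probe sets and 32 of 41 values kept their sign throughout. Several settings leave a change as it is: the filter, the trend and robust fit, the blocks, the thresholds and 1 probe set per gene. These could not turn a sign. The kept signs, that of TXNIP included, thus rest on the rescalings, the means per gene and the fits without single arrays. The sign turned for ARRDC2 with median centring (0.013) and without single arrays (-0.048 to 0.0081), for ARRDC4 after quantile normalization (-0.0012) and without single arrays (-0.029 to 0.096), and for the dimmer TXN probe set without miR-NT replicate 1 (-0.0032 to 0.33 without single arrays). It also turned for the second brightest MLXIP probe set with median centring (0.018), cyclic loess (0.0016) and without single arrays (-0.21 to 0.18). The brightest MLX probe set turned after quantile normalization (-0.089), cyclic loess (-0.094), for the mean per gene (-0.048) and without single arrays (-0.058 to 0.061). The third MLX probe set by level turned with median centring (0.020), and without single arrays its values lay between -0.089 and 0.062, those of the next between -0.18 and 0.061 and those of the fifth between -0.032 and 0.062. As means over their probe sets, WWP2 was at -0.033, TXN at 0.34, TXNRD1 at 0.34, PRDX2 at 0.20, MAX at 0.025, HK2 at 0.41, HECW2 at 0.43, PRKAG2 at 0.20, ITGB4 at -0.029 and NT5DC2 at -0.29. The cause of these turns was not tested, apart from WWP2, whose probe sets disagree.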

Other observations

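The tandem E-box element of the TXNIP promoter was found in the promoters of 20 genes, 18 of which were measured. Of these 18 the mean was higher in miR-20a cells for 13 and lower for 5, TXNIP included, where 47% of all genes had a higher mean. The median change was 0.15, against -0.01 for all genes, and 0 were past the adjusted threshold (limma). The median change of all probe sets was -0.03 between 7.5 and 8.0 log2 units and 0.13 between 12.0 and 12.5. Genes of this set lie at either level, and the part of the level in their values was not tested. At the lower end, TXNIP at -0.64 was followed by ADAD2 at -0.24. At the upper end stood ATP5ME, a subunit of the mitochondrial ATP synthase, at 0.55, TCEAL4 at 0.45 and RAN, the nuclear transport GTPase, at 0.27. RAN was at 12.43 and 12.43 in miR-20a cells and at 12.13 and 12.17 in miR-NT cells. P4HA1, a collagen prolyl hydroxylase, had a change of 0.14 ± 0.09 (SE) and GFPT1, the first enzyme of the hexosamine pathway, -0.04 ± 0.09 (SE). This set was formed after the values of TXNIP were known, and its members were named after their values were seen.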
